A study of Mus musculus with 2 samples.

Results

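The Hox genes encode homeodomain transcription factors, and the matrix lists 39 protein-coding members among its 27998 genes, taken as every symbol made of Hox, a cluster letter from a to d and a paralog number. The Hoxa cluster has 11 of them, Hoxb 10, Hoxc 9 and Hoxd 9. The cells came from the mesentery of 2 male C57BL/6N mice, both wild type and untreated, whose tissue was digested with Liberase DH, and each mouse gave 1 droplet library made with a 3' counting chemistry. No age other than a date of birth is given, and the design has 1 group, so the comparisons below are between cell types within the same animals.

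Hox genes lie in 4 clusters, and the order of the genes along each cluster follows the order in which they are used along the body axis of the embryo. Members with a low paralog number act towards the head and members with a high number towards the tail, and genes with the same number in different clusters are paralogs. Adult connective tissue keeps part of this positional code, and fibroblasts from different places in the body are known to use different sets of Hox genes. Hox proteins bind DNA together with cofactors of the Pbx and Meis families, and trithorax and Polycomb proteins keep each cluster active or silent.

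Cells were named from fixed markers after clustering without the Hox genes. The 3100 cells analysed held 989 fibroblast-like, 245 mesothelial-like, 343 endothelial-like and 158 pericyte-like cells and 1312 leukocytes of the named classes, which were summed. No barcode sequence was shared by the libraries. The libraries held 1517 and 1687 barcodes with 5137671 and 5563521 UMIs, and the sums per cell type and library ran from 339530 UMIs in pericyte-like cells of library 1 to 1848632 in leukocytes of library 2. Levels are a gene's UMIs as a share of all UMIs of that cell type in that library, in CPM, and n is 2 libraries throughout. Names end in -like because they were rebuilt from markers here.

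Defining markers were present in each cell type, but several sums also carried markers of another type. Pericyte-like cells had the pericyte gene Rgs5 at 1741 and 1742 CPM and Notch3 at 341.6 and 429.4 CPM. They also had the endothelial gene Cdh5 at 868.8 and 934.8 CPM, beside 1220 and 1019 CPM in endothelial-like cells, and all 12 blood endothelial markers, summing to 69.1% and 82.6% of the endothelial-like level. Mesothelial-like cells had Upk3b at 2220 and 2121 CPM and the 12 fibroblast markers at 68.5% and 68.2% of the fibroblast-like level. Endothelial-like cells carried all 8 adipocyte markers, summing to 288.0 and 535.9 CPM beside 4.61 and 0.61 CPM in fibroblast-like cells, and the gene of highest fold in their cluster was Car3. Among leukocytes, dendritic-like cells carried the fibroblast markers at 18.1% and 34.1% of that level. The part of these markers in the Hox results was not tested. In such sums, fewer cells of a type and less RNA per cell cannot be told apart.

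Each cluster sits on its own chromosome. On GRCm38 with GENCODE M21, the assembly that mm10 names, Hoxa spans chr6:52155590-52260880, Hoxb chr11:96194316-96368256, Hoxc chr15:102921103-103036852 and Hoxd chr2:74668310-74765142. The upstream sequences of 3 members around which the results turn are shown with their start at the right: Hoxb4, the leading member of endothelial-like and pericyte-like cells, Hoxb8, which was higher there than in fibroblast-like cells, and Hoxc4, the member of the Hoxc cluster with an entry in the promoter table. They are the 250 bases before a RefSeq start on GRCm38.p6, all on the plus strand, at chr11:96318017-96318266, chr11:96281655-96281904 and chr15:103034145-103034394. Capitals mark TGATNNAT, a form of the site that Hox and Pbx proteins bind together, on either strand.
Hoxb4: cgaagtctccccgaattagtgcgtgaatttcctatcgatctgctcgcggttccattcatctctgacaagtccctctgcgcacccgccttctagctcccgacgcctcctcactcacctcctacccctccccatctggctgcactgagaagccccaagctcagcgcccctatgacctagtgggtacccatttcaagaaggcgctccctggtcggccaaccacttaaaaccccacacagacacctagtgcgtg
Hoxb8: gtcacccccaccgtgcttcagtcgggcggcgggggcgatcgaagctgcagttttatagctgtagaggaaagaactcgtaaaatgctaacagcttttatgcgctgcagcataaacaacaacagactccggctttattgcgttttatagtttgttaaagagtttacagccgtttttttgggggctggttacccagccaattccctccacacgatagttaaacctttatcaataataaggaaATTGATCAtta
Hoxc4: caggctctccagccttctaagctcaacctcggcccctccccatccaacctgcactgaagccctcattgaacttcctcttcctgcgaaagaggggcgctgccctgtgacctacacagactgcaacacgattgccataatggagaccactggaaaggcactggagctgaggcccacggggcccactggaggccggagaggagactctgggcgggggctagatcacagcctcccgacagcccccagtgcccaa

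The promoter table had entries for 22 of the 39 members, with 24 windows of 300 bases that also take in the 50 bases after the start. TGATNNAT, read on both strands, was found in 4 of the 24 windows, those of Hoxb8, Hoxa2, Hoxb1 and Hoxd11, and in 8.85% of all 32851 windows in the table. The homeodomain core TAATTA was found in 2 of the 24, both of Hoxd11, and in 5.29% of all windows. The Meis site TGACAG was found in 2 of the 24, those of Hoxa2 and Hoxa3, and in 19.2% of all windows. The median GC content of the Hox windows was 57.7%, beside 52.7% over all windows. These matches are letters in a window and were not tested for binding.

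Mesenteric cells read the front and middle of the clusters and almost none of the posterior end. Of the 39 members, 21 had at least 10 UMIs over the 10 sums and were tested, 5 had 1 to 9 UMIs and 13 had none. Of the 12 members with paralog number 10 and above, 11 had no UMI, and Hoxc10 had 1 UMI, in pericyte-like cells of library 2. With both libraries summed, a count of 0 in fibroblast-like cells allows up to 0.889 CPM. The members with paralog number 9 and below that had no UMI were Hoxb1 and Hoxd3. The most posterior member with a UMI was Hoxa9 with 1 UMI, Hoxb9 with 43, Hoxc10 with 1 and Hoxd9 with 35.

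**Figure D1:**
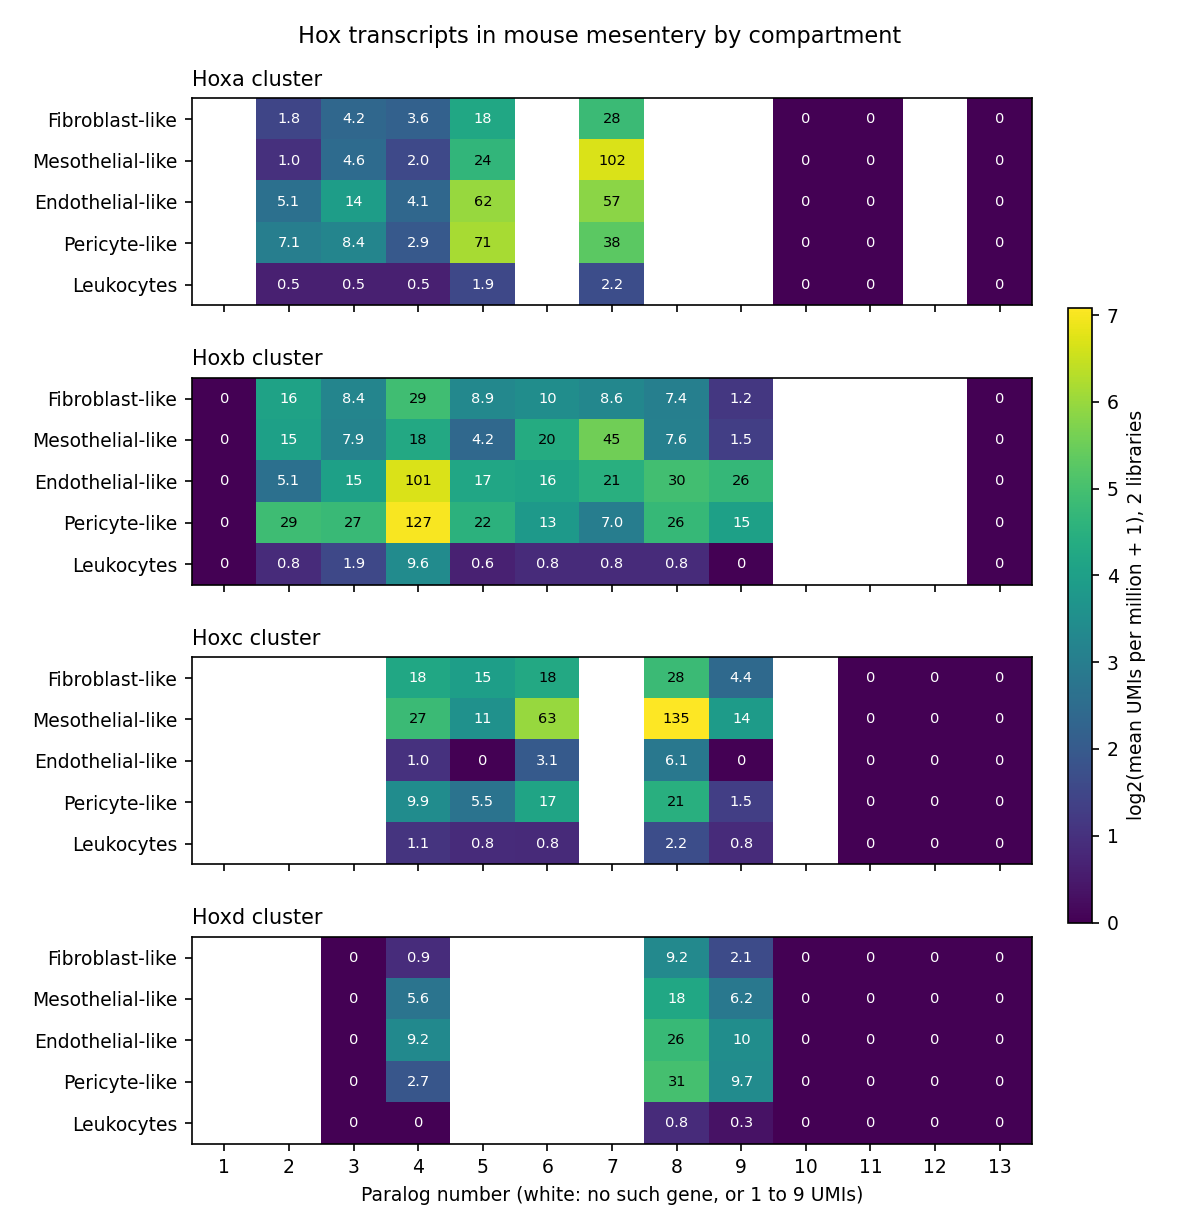
Mean level of each Hox gene in the 2 libraries, in CPM, by cluster (panels), paralog number (columns) and cell type (rows); colour is log2(mean + 1) and the printed values are the means. Members with 1 to 9 UMIs are left white, no level above 0 is shown past paralog number 9, and the Hoxc row of endothelial-like cells stays between 0 and 6.1.

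Fibroblast-like, mesothelial-like, endothelial-like and pericyte-like cells, called wall cell types here, all had higher Hox levels than leukocytes in both libraries. Fibroblast-like cells had 223.7 and 258.6 CPM of all Hox genes together in libraries 1 and 2, mesothelial-like cells 542.3 and 528.4 CPM, endothelial-like cells 411.5 and 455.0 CPM, and pericyte-like cells 497.7 and 497.3 CPM. Leukocytes had 21.8 and 34.1 CPM, so that both of their values lay below every value of the other 4 cell types. The 2 values of fibroblast-like cells lay below all those of the other wall cell types. A UMI was found for 23 members in fibroblast-like and in mesothelial-like cells, 24 in pericyte-like cells, 21 in endothelial-like cells and 19 in leukocytes. These counts depend on depth, which differed between the cell types. Of the 21 tested members, 7 had their highest mean level in mesothelial-like cells, 7 in pericyte-like, 6 in endothelial-like and 1, Hoxc5, in fibroblast-like cells.

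The cell types also differed in which cluster gave the transcripts. In fibroblast-like cells Hoxb gave 37.2% of the 812 Hox UMIs (exact 95% interval 33.9 to 40.6%), Hoxc 34.5% (31.2 to 37.9%), Hoxa 23.3% and Hoxd 5.05%. In mesothelial-like cells Hoxc gave the largest share, 45.6% of 776 UMIs (42.1 to 49.2%), and Hoxb 23.3%. In endothelial-like cells Hoxc gave 10 of 425 UMIs, 2.35% (1.13 to 4.28%), and Hoxb 53.4%. Pericyte-like cells resembled endothelial-like cells in their Hoxb share, 53.4% of 352 UMIs, while Hoxc gave 11.4% (8.24 to 15.2%). The Hoxc share was below 3% in both endothelial-like libraries, at 2.00% and 2.67%, and between 33.3% and 49.4% in the fibroblast-like and mesothelial-like ones. These intervals cover counting error only, as do all intervals and limits here.

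**Figure D2:**
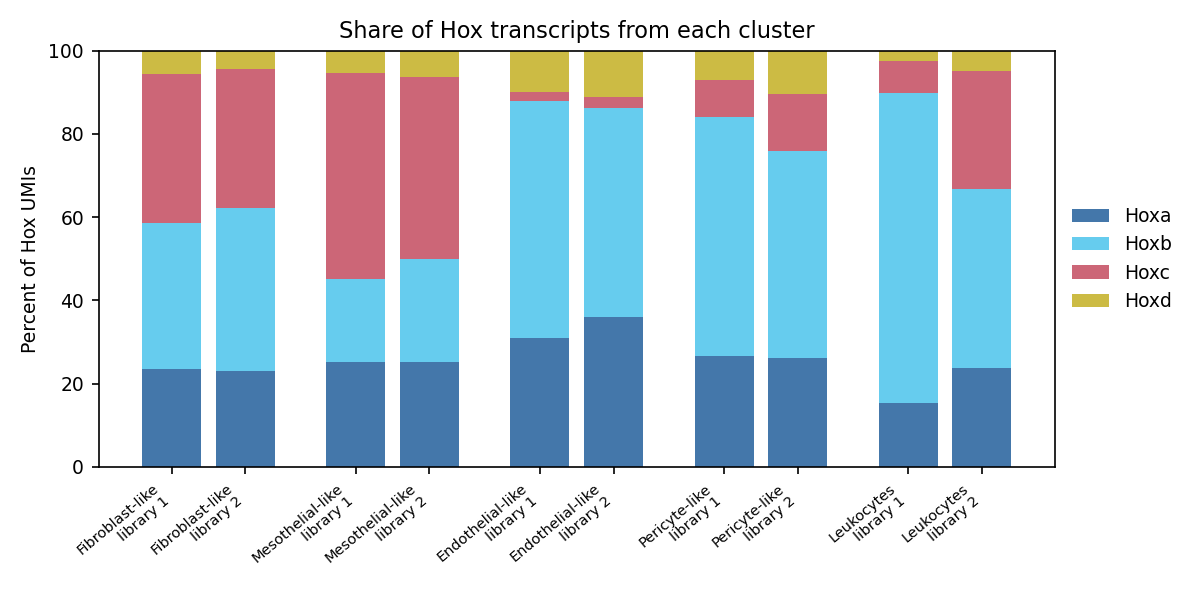
Share of all Hox UMIs that came from each cluster, in percent, for each cell type and library (1 bar per library). The Hoxc segment covers 33.3% to 49.4% of the fibroblast-like and mesothelial-like bars and 2.00% and 2.67% of the endothelial-like bars.

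Position within the clusters differed as well. Paralog numbers 7 to 9 gave 60.3% of Hox UMIs in mesothelial-like cells (56.8 to 63.8%), 36.6% in fibroblast-like (33.3 to 39.99%), 40.9% in endothelial-like and 30.1% in pericyte-like cells. Numbers 4 to 6 gave 50.9% in fibroblast-like, 49.9% in endothelial-like, 54.8% in pericyte-like and 33.0% in mesothelial-like cells. Numbers 1 to 3 gave 14.8% in pericyte-like cells and 6.70% in mesothelial-like cells. Mesothelial-like cells were thus weighted towards higher paralog numbers in both libraries, with 64.2% and 58.5% from numbers 7 to 9.

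In fibroblast-like cells the 6 leading members were Hoxb4, Hoxc8, Hoxa7, Hoxc6, Hoxc4 and Hoxa5. Hoxb4 had 26.5 and 32.3 CPM, Hoxc8 24.8 and 30.5 CPM and Hoxa7 27.1 and 28.1 CPM, and the ranges of the 3 overlapped. Hoxc6, at 16.1 and 20.7 CPM, Hoxc4, at 16.7 and 18.9 CPM, and Hoxa5, at 17.9 and 17.7 CPM, also overlapped one another and lay below those 3. No member of the fibroblast-like set stood far above the rest. Hoxa5 is known for its part in lung and gut development, and Hoxc8 for patterning the thoracic spine.

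Mesothelial-like cells were led by Hoxc8 at 145.1 and 124.9 CPM, Hoxa7 at 113.8 and 89.2 CPM and Hoxc6 at 60.3 and 65.4 CPM. The libraries of these 3 members did not overlap one another. Hoxb7 followed at 42.4 and 48.6 CPM, then Hoxc4 at 26.8 and 27.8 CPM and Hoxa5 at 20.1 and 28.7 CPM, the last pair overlapping.

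Endothelial-like cells were led by Hoxb4 at 111.1 and 91.0 CPM, ahead of Hoxa5 at 59.7 and 64.7 CPM. Hoxa7, at 39.1 and 74.8 CPM, overlapped Hoxa5. Hoxb8, at 28.8 and 30.3 CPM, Hoxd8, at 20.6 and 32.4 CPM, and Hoxb9, at 37.0 and 14.2 CPM, overlapped one another and lay below Hoxa7. Pericyte-like cells were led by the same pair, Hoxb4 at 132.5 and 122.3 CPM and Hoxa5 at 70.7 CPM in both libraries. Hoxa7 at 38.3 and 38.0 CPM, Hoxd8 at 29.5 and 32.6 CPM, Hoxb2 at 35.3 and 21.7 CPM and Hoxb3 at 32.4 and 21.7 CPM came next and overlapped one another, apart from Hoxa7, which lay above them. Hoxb4 is known for promoting blood stem cell expansion when overexpressed.

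**Figure D3:**
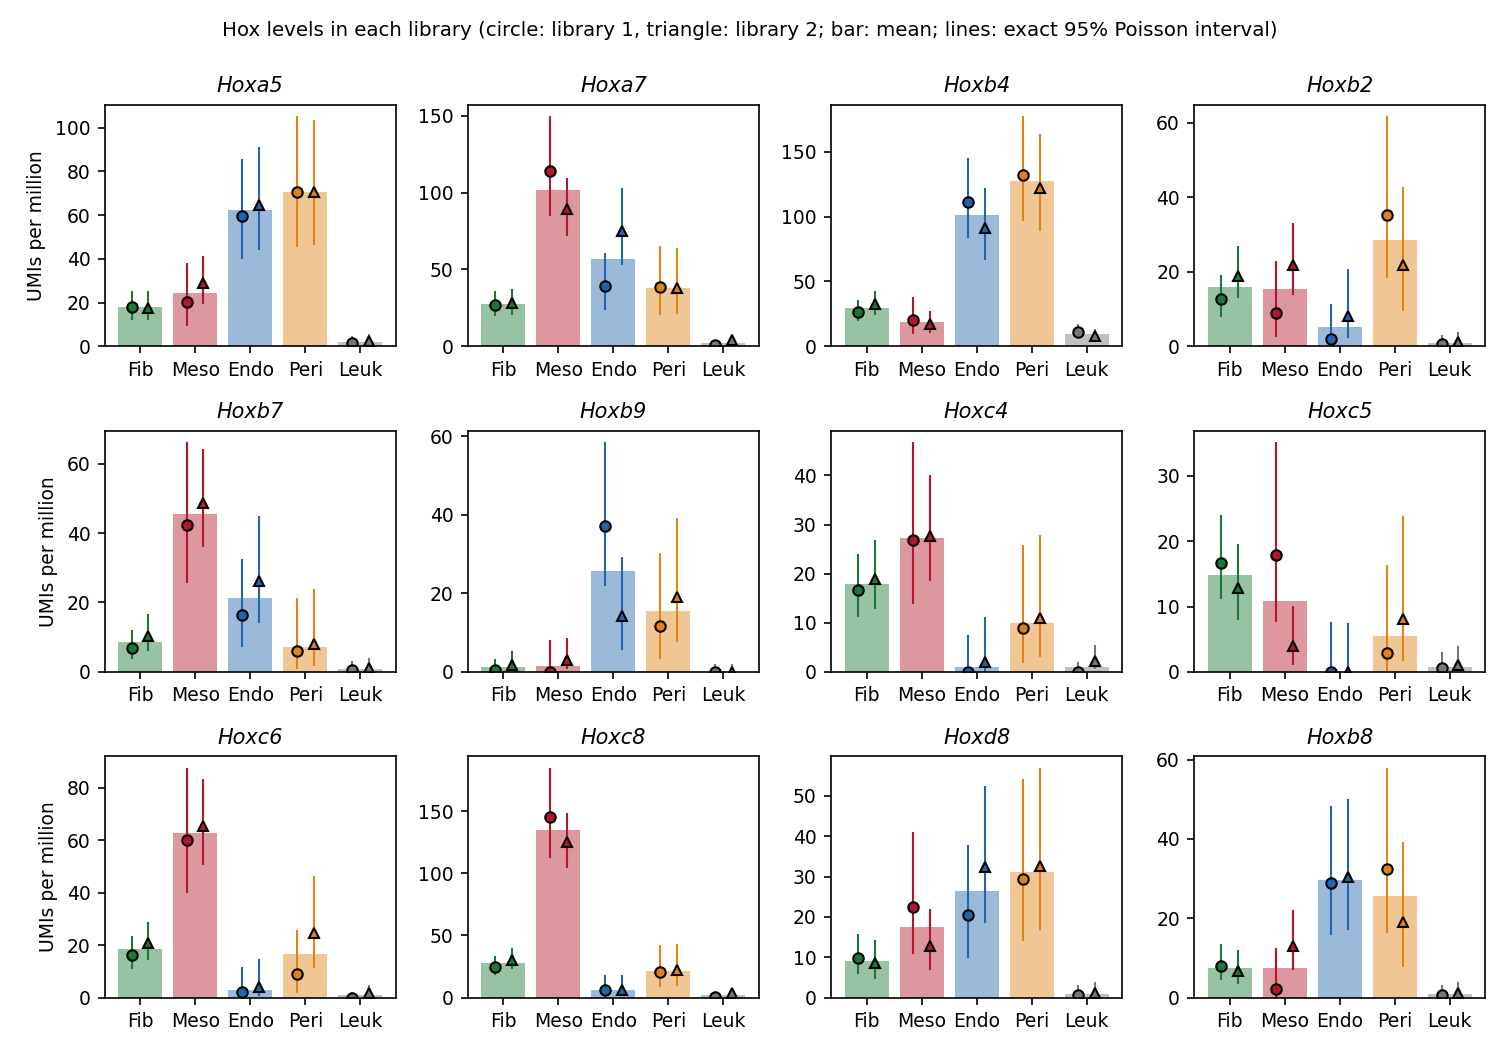
Levels of 12 Hox genes in CPM in fibroblast-like (Fib), mesothelial-like (Meso), endothelial-like (Endo) and pericyte-like (Peri) cells and leukocytes (Leuk); bars are means of 2 libraries, circles library 1, triangles library 2, and lines exact 95% Poisson intervals of each library. Hoxc4, Hoxc5, Hoxc6 and Hoxc8 are at or near 0 in endothelial-like cells, and Hoxb4 and Hoxa5 are highest in endothelial-like and pericyte-like cells.

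Most tested Hox genes were higher in fibroblast-like cells than in leukocytes. Of the 21 tested members, 16 were higher in fibroblast-like cells by edgeR's quasi-likelihood test with Benjamini-Hochberg adjustment at 0.05 and none was lower, where over all 13242 genes tested 24.6% were called higher and 25.5% lower, 50.1% in all. At an unadjusted p under 0.05, 18 were higher and 0 lower, and DESeq2's Wald test called 13 higher and 0 lower. The shares of all genes given here are those of the adjusted edgeR test, not of these counts. The median log2 fold change was 3.14 over the 21 members and -0.01 over all genes. The libraries of the 2 cell types did not overlap for any of the 21 members, called or not. For Hoxa2 this came down to 1 UMI in each cell type in library 1, at 0.577 beside 0.558 CPM. The lack of overlap does not set the 16 apart, and its share over all genes was not counted. The 5 that did not pass were Hoxa2, Hoxa4, Hoxb9, Hoxd4 and Hoxd9.

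Hoxc8 had 0.558 and 3.79 CPM in leukocytes, from 1 and 7 UMIs, so it was 12.7-fold higher in fibroblast-like cells, with a log2 fold change of 3.50 (SE 0.43, adjusted p = 6.89e-15). Hoxa7 had the same counts in leukocytes and a log2 fold change of 3.50 (SE 0.43, adjusted p = 6.41e-15). For Hoxc6, whose leukocyte count was 3 UMIs, the ratio of levels was 22.3 with an exact 95% interval of 7.29 to 111. For Hoxb2, also at 3 UMIs, it was 19.1 (6.18 to 95.4), and for Hoxc5, at 3 UMIs, 18.0 (5.81 to 90.2). Hoxb5, at 2 and 0 UMIs in leukocytes, had a ratio of 16.2 (4.11 to 139.8), and Hoxb6, at 3 and 0 UMIs, one of 12.2 (3.85 to 62.2). Hoxc4 had 0 and 4 UMIs in leukocytes and a log2 fold change of 3.81 (SE 0.55, adjusted p = 4.68e-11). These are members from the anterior and middle parts of the clusters. The smallest called difference was that of Hoxb4, which had 11.2 and 8.11 CPM in leukocytes and a log2 fold change of 1.51 (SE 0.30, adjusted p = 3.13e-06).

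Within leukocytes the Hox UMIs were unevenly spread. Of 102 Hox UMIs, dendritic-like cells held 58, at 69.8 and 92.3 CPM, monocyte-like 19, macrophage-like 8, B-like 5, NK or ILC1-like 5, ILC2-like 4 and T-like 3. The classes differ in depth, so these counts are not levels. Hoxb4 had 21.8 and 30.8 CPM in NK or ILC1-like cells, from 2 UMIs in each library, beside 26.6 and 12.5 CPM in dendritic-like cells. T-like cells had 3.52 and 6.52 CPM of all Hox genes, and the 5 UMIs of B-like cells were all of Hoxb4. The dendritic-like cells are those that carried fibroblast markers, and their part in the level was not tested. With leukocytes without dendritic-like cells, an alternative chosen after seeing the data, 17 members were higher and the median log2 fold change of the tested members was 4.08. The share of all genes called higher at that setting is not given here. Hoxb4 was the leading member of leukocytes, ahead of Hoxa7 and Hoxc8.

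Hoxc8, Hoxa7, Hoxb7 and Hoxc6, from the middle of 3 clusters, were higher in mesothelial-like than in fibroblast-like cells. These 4 tested members were lower in fibroblast-like than in mesothelial-like cells and 1 was higher, where over all genes 14.8% were lower and 13.4% higher, 28.2% in all. The members' share called, 5 of 21, was near that background. Hoxc8 was 4.88-fold higher in mesothelial-like cells, with -2.03 as its log2 fold change, fibroblast-like minus mesothelial-like (SE 0.23, adjusted p = 3.78e-17). Hoxa7, at 3.68-fold, Hoxb7, at 5.26-fold, and Hoxc6, at 3.41-fold higher in mesothelial-like cells, passed as well, with adjusted p of 5.94e-10, 2.52e-08 and 2.38e-06. Hoxb4, at 20.1 and 16.9 CPM in mesothelial-like cells, was 1.59-fold higher in the fibroblast-like sums (0.91 on the log2 scale, SE 0.34, adjusted p = 0.0296), and it did not pass with DESeq2's Wald test (adjusted p = 0.212) or with each class as its own sum (0.0717). By the Wald test Hoxc6 did not pass either (0.0582). Hoxc9 is a Hoxc member that did not pass here, at 5.77 and 3.05 CPM in fibroblast-like and 17.9 and 9.91 CPM in mesothelial-like cells (adjusted p = 0.0893). The median log2 fold change of the 21 members was -0.36, beside -0.03 over all genes.

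All tested Hoxc genes were higher in fibroblast-like than in endothelial-like cells, while Hoxb4, Hoxb8, Hoxb9 and Hoxa5 were lower. Of the 21 tested members, 6 were higher and 7 lower in fibroblast-like than in endothelial-like cells, where 17.4% of all genes were higher and 15.3% lower, 32.7% in all. All 5 tested Hoxc members were among the higher ones, together with Hoxb2, and none of the lower ones was a Hoxc gene. The lower ones were Hoxa5, Hoxa7, Hoxb4, Hoxb8, Hoxb9, Hoxd4 and Hoxd8.

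Hoxc5 had 29 and 21 UMIs in fibroblast-like cells, at 16.7 and 12.8 CPM, and none in endothelial-like cells of either library, so it was at least 4.84-fold higher against a limit of 3 counts over both libraries (adjusted p = 1.21e-05). Hoxc4 had 29 and 31 UMIs against 0 and 1, a ratio of 17.4 (exact 95% interval 3.01 to 700; adjusted p = 1.09e-05). Hoxc6 had 28 and 34 UMIs against 1 and 2, a ratio of 6.01 (1.96 to 29.9; adjusted p = 0.000233). Hoxc8 was at 6.17 and 6.07 CPM in endothelial-like cells and 4.52-fold higher in the fibroblast-like sums, or 2.36 on the log2 scale (SE 0.52, adjusted p = 3.65e-05). Hoxc9 had 10 and 5 UMIs in fibroblast-like cells and none in endothelial-like cells, at least 1.45-fold higher (adjusted p = 0.042). It did not pass without the filter on low counts (0.0551), with DESeq2's Wald test (0.157), at a clustering resolution of 2.0 (0.206) or with each class as its own sum (0.0688). Hoxb2, at 12.7 and 18.9 CPM in fibroblast-like and 2.06 and 8.09 CPM in endothelial-like cells, was 3.11-fold higher in the former (adjusted p = 0.0113), and did not pass with the stricter cell filter (0.189) or by the Wald test (0.181).

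In the other direction, Hoxb9 had 18 and 7 UMIs in endothelial-like cells, at 37.0 and 14.2 CPM, against 0.577 and 1.83 CPM in fibroblast-like cells. It was 21.3-fold higher in endothelial-like cells, with a log2 fold change of -4.08 (SE 0.71, adjusted p = 1.02e-07). Hoxb4 was 3.43-fold higher there (log2 fold change -1.56, SE 0.25, adjusted p = 4.36e-09) and Hoxa5 3.50-fold (-1.58, SE 0.31, adjusted p = 3.46e-06). Hoxb8 was 4.00-fold higher there (-1.77, SE 0.44, adjusted p = 0.000403). For Hoxd4, with 3 UMIs in fibroblast-like cells, the ratio was 10.3 (2.58 to 59.3; adjusted p = 0.0171). By DESeq2's Wald test Hoxb8, Hoxd8, Hoxa7 and Hoxd4 did not pass, with adjusted p from 0.0861 to 0.3, and at resolution 2.0 Hoxa5, Hoxd8, Hoxa7 and Hoxd4 did not, from 0.0517 to 0.517. At that resolution 175 of the 343 endothelial-like cells kept the name, 166 were named adipocyte-like and 8 members were called, 5 higher and 3 lower. The share of all genes called at that resolution is not given here. The part of the adipocyte markers in these results was not tested. The gene models of Hoxd3 and Hoxd4 share 62.3% and 52.3% of their exonic bases with same-strand genes, each other and Gm28230. Of the last 500 exonic bases, 0% of Hoxd3 and 4.4% of Hoxd4 are shared. Given the overlap, these 2 symbols are uncertain. Over all 39 members, 10 have exons of another gene on the opposite strand.

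**Figure D4:**
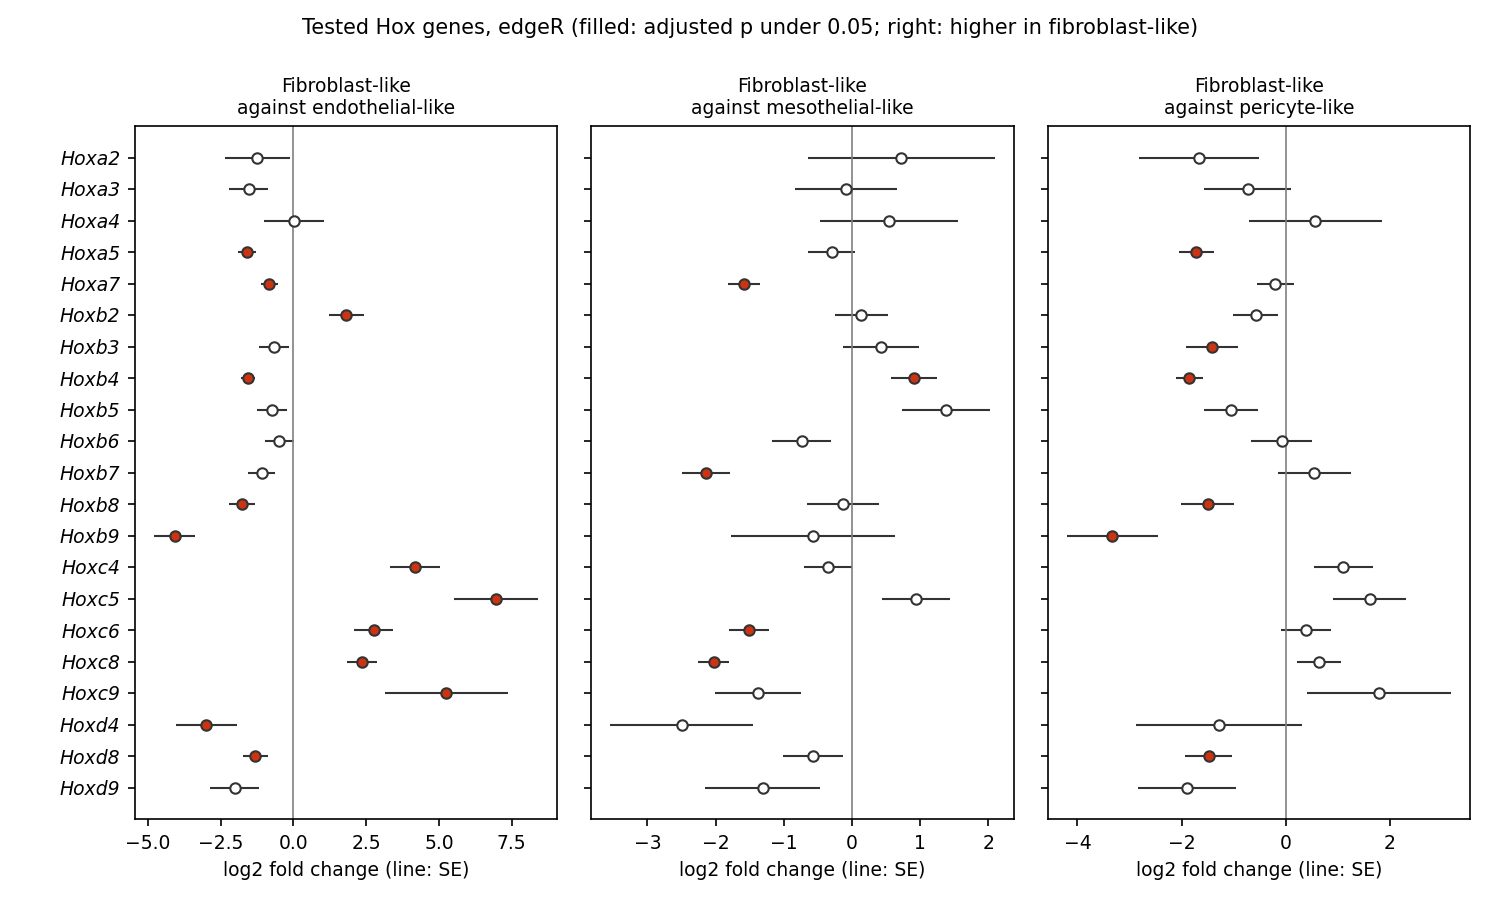
Log2 fold change of the 21 tested Hox genes in fibroblast-like cells against endothelial-like, mesothelial-like and pericyte-like cells (edgeR; points are the fit, lines its SE, filled points have an adjusted p under 0.05). All 5 Hoxc genes are filled to the right of 0 in the endothelial panel, where points past 3 rest on compartments with 0 or 1 UMI and are no bound on the fold.

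All tested Hoxc genes were also higher in mesothelial-like than in endothelial-like cells. Here 8 members were higher and 5 lower in mesothelial-like cells, where 17.8% of all genes were higher and 14.6% lower, 32.4% in all. The higher ones were all 5 tested Hoxc members with Hoxa7, Hoxb2 and Hoxb7. Hoxc8 was 22.1-fold higher in mesothelial-like cells (4.39 on the log2 scale, SE 0.42, adjusted p = 3.36e-23), and Hoxc6, with 27 and 66 UMIs against 1 and 2, had a ratio of 20.9 (6.92 to 103). Hoxc4, with 1 endothelial-like UMI, had a ratio of 26.9 (4.56 to 1089.6). Hoxc9 was at least 4.04-fold higher and Hoxc5 at least 2.69-fold higher. The lower ones were Hoxa5, Hoxb4, Hoxb5, Hoxb8 and Hoxb9, with Hoxb4 5.47-fold higher in endothelial-like cells (-2.47, SE 0.32, adjusted p = 7.38e-13). Hoxb9, with 3 mesothelial-like UMIs, had a ratio of 12.4 (3.78 to 64.1) towards endothelial-like cells, and Hoxb5 was 4.10-fold higher there (adjusted p = 0.0102). Hoxb2, at 8.93 and 21.8 CPM in mesothelial-like cells, passed with an adjusted p of 0.0397, but not with the stricter cell filter (0.365), without the library block (0.0514) or under 3 other alternatives. By DESeq2's Wald test Hoxa7, Hoxb5, Hoxb7 and Hoxb8 did not pass, from 0.111 to 0.268, and at resolution 2.0 Hoxa5, Hoxa7, Hoxb5 and Hoxc5 did not, from 0.0603 to 0.253. Both comparisons share the endothelial-like sums, so what they have in common is not independent. The median log2 fold change was -0.53 over the members and 0.11 over all genes.

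Against pericyte-like cells, 6 tested members were lower in fibroblast-like cells and none was higher, where 14.7% of all genes were called in each direction, 29.4% in all. At an unadjusted p under 0.05, 2 members were higher and 8 lower, and DESeq2's Wald test called 0 higher and 2 lower. The shares of all genes given here are those of the adjusted edgeR test, not of these counts. By the adjusted edgeR test the members' share called, 6 of 21, was near the 29.4% of all genes. The 6 were Hoxa5, Hoxb3, Hoxb4, Hoxb8, Hoxb9 and Hoxd8. Hoxb4 was 4.33-fold higher in pericyte-like cells (-1.85, SE 0.26, adjusted p = 1.47e-11) and Hoxa5 3.97-fold (-1.72, SE 0.33, adjusted p = 2.27e-06). Hoxb9, at 11.8 and 19.0 CPM in pericyte-like cells, was 12.8-fold higher there (-3.33, SE 0.88, adjusted p = 0.00091). Hoxb8 was 3.48-fold higher there, Hoxd8 3.38-fold and Hoxb3 3.22-fold. By DESeq2's Wald test these 3 and Hoxb9 did not pass, with adjusted p from 0.0548 to 0.216. None of the 5 tested Hoxc members passed, with Hoxc8 at 20.6 and 21.7 CPM in pericyte-like cells beside 24.8 and 30.5 CPM in fibroblast-like cells. The same cells carried the blood endothelial markers at 69.1% and 82.6% of the endothelial-like level, and the part of these markers in the result was not tested.

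The remaining tested members were low. Hoxa3 had 3.46 and 4.88 CPM in fibroblast-like and 16.5 and 12.1 CPM in endothelial-like cells, and did not pass there (adjusted p = 0.0565). Hoxd9 had 1.73 and 2.44 CPM in fibroblast-like and 8.23 and 12.1 CPM in endothelial-like cells and did not pass either (0.0516). Hoxa2 stayed under 9 CPM in every sum, and Hoxa4, at 8.23 and 0 CPM in endothelial-like cells, differed between the libraries. Among the untested members with a UMI, Hoxa6 had 6, Hoxd1 had 3 and Hoxa9 and Hoxc10 had 1 each.

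Per cell, Hox transcripts were sparse. After thinning every cell to 1000 UMIs, 18.0% and 24.4% of fibroblast-like cells had a UMI of any Hox gene, 31.3% and 42.6% of mesothelial-like, 29.3% and 38.3% of endothelial-like and 40.5% and 44.4% of pericyte-like cells. In T-like cells it was 0 of 144, which allows a share of up to 2.08%, and 1 of 148, and in B-like cells 2 of 125 and 1 of 97. Any Hoxc gene was found in 2 of 174 and 1 of 154 endothelial-like cells, 1.15% and 0.649%, shares no higher than those of any Hox gene in B-like cells. Any Hoxc gene was found in 7.69% and 9.23% of fibroblast-like cells and 14.9% and 18.8% of mesothelial-like cells. Unthinned, 52.0% and 49.7% of fibroblast-like cells had a Hox UMI, at medians of 3644.5 and 2980 UMIs per cell, and 4.19% and 6.15% of leukocytes, at 2061 and 1948.

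Cells with UMIs of several Hox genes were found in every wall cell type. Unthinned, 75.0% and 66.7% of mesothelial-like cells had UMIs of 2 or more Hox genes, as did 59.5% and 53.6% of pericyte-like, 23.3% and 36.2% of endothelial-like and 18.9% and 17.6% of fibroblast-like cells. The most in 1 cell was 8 genes, in a mesothelial-like cell of library 2. Depth differed between them, with medians of 6750.5 and 5771 UMIs per mesothelial-like cell, 4490.5 and 3911 per pericyte-like, 2154 and 2323 per endothelial-like and 3644.5 and 2980 per fibroblast-like cell.

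Among the 4 fibroblast-like clusters, Hoxb4 was the tested Hox gene that differed. Cluster 1 was led by Cxcl14 and Inmt, cluster 2 by Pi16, cluster 5 by Has1 and cluster 9 by Mfap4 and Mgp. Their totals over all Hox genes ran from 190.8 to 297.8 CPM over the 8 sums, and the Hoxc share of the summed libraries from 34.0% to 35.3%. Of 17 tested members 1, Hoxb4, differed among the clusters by edgeR's test of any difference, where 16.1% of all 10104 genes did. Hoxb4 had 15.1 and 9.17 CPM in cluster 2, 20.5 and 38.0 CPM in cluster 5, 36.2 and 47.4 CPM in cluster 1 and 45.1 and 47.7 CPM in cluster 9 (adjusted p = 0.00294). Both values of cluster 2 lay below all others, and cluster 2 also had the highest median depth, 4462.5 UMIs per cell beside 2923 in cluster 1; the part of depth was not tested. The call was lost without doublet removal (adjusted p = 0.0796) and by DESeq2's likelihood ratio test (0.62). Hoxb2 had 13.6 and 34.9 CPM in cluster 2 and 18.1 and 7.11 CPM in cluster 1, and did not pass (adjusted p = 0.345).

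**Figure D5:**
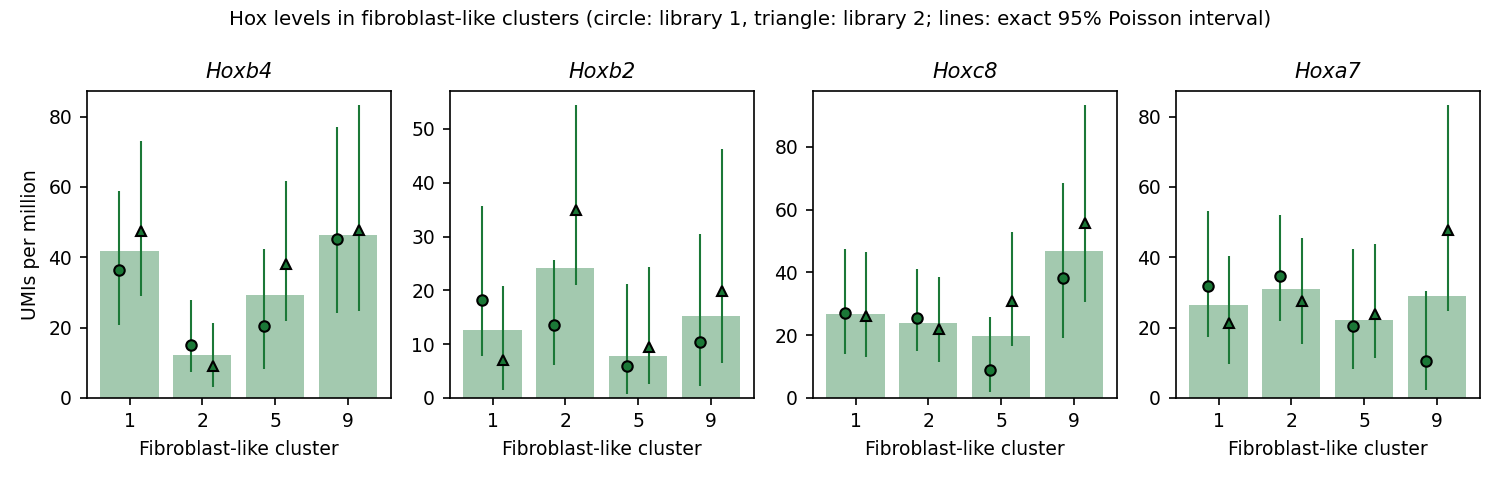
Levels of 4 Hox genes in CPM in the fibroblast-like clusters 1, 2, 5 and 9; bars are means of 2 libraries, circles library 1, triangles library 2, and lines exact 95% Poisson intervals. Hoxb4 is lowest in cluster 2 in both libraries, at 15.1 and 9.17; Hoxb2, Hoxc8 and Hoxa7 did not pass the test of any difference among the clusters.

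Halr1, Hotairm1, Hoxb3os and Hoxd3os1, noncoding RNAs of the Hox clusters, were lower in fibroblast-like than in endothelial-like and in pericyte-like cells. Of the 20 on the list, 6 were tested, and 4 were lower in fibroblast-like than in endothelial-like cells and 4 lower than in pericyte-like cells, with none higher in either, where 15.3% and 14.7% of all genes were lower. Halr1, a long noncoding RNA, had 30 and 13 UMIs in endothelial-like cells and none in fibroblast-like cells, at least 49.3-fold higher (adjusted p = 1.04e-18), and none in mesothelial-like cells, at least 21.3-fold (adjusted p = 1.67e-11). Hotairm1, a long noncoding RNA of the Hoxa cluster, had 94.6 and 99.1 CPM in endothelial-like and 23.6 and 25.01 CPM in fibroblast-like cells (-1.77 on the log2 scale, SE 0.26, adjusted p = 1.15e-10). Against leukocytes 3 were higher in fibroblast-like cells, Hotairm1, Hoxb3os and Hoxd3os1, where 24.6% of all genes were, and against mesothelial-like cells 1, Hoxd3os1, was lower, where 14.8% were. Between mesothelial-like and endothelial-like cells 3 were lower, where 14.6% of all genes were. Whether counting used strand was not stated, so reads of antisense pairs may be mixed.

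Among the cofactors, Meis1, Meis2, Meis3 and Tgif1 were higher in fibroblast-like than in endothelial-like cells and Pbx2 and Pbx3 lower. Of 11 TALE genes, all tested, 5 were higher and 2 lower in fibroblast-like than in endothelial-like cells, where 17.4% of all genes were higher and 15.3% lower, and their median log2 fold change was 0.63 beside 0.07 over all genes. Meis2 had 110 and 109 CPM in fibroblast-like and 18.5 and 42.5 CPM in endothelial-like cells (2.05, SE 0.27, adjusted p = 5.78e-13). Against leukocytes 5 cofactors were higher and 2 lower, where 24.6% and 25.5% of all genes were. Against mesothelial-like cells they were 3 and 3, where the shares of all genes were 13.4% and 14.8%, and against pericyte-like cells 5 and 1, where both shares were 14.7%. Between mesothelial-like and endothelial-like cells 5 were higher and 3 lower, where 17.8% and 14.6% of all genes were. Meis1 was lower in fibroblast-like than in mesothelial-like cells, at 34.6 and 30.5 beside 51.3 and 72.4 CPM (-0.75, SE 0.26, adjusted p = 0.0189).

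Kdm6b was higher and Jarid2 lower in fibroblast-like cells than in leukocytes. Of 15 trithorax-type activators, 1 was higher in fibroblast-like cells than in leukocytes, Kdm6b, a histone H3K27 demethylase, and 14 did not pass, where 50.1% of all genes were called. Against mesothelial-like cells 2 were higher and 2 lower, near the 13.4% and 14.8% of all genes. Against endothelial-like cells 2 were higher and 0 lower, where 17.4% and 15.3% of all genes were, and against pericyte-like cells 1 was higher and 4 lower, where 14.7% were in each direction. Of 20 Polycomb genes 19 were tested, with 9 lower and 1 higher in fibroblast-like cells than in leukocytes, a share called near the 50.1% of all genes, of which 25.5% were lower. Jarid2, a partner of the silencing complex PRC2, was at 13.8 and 11.6 beside 84.2 and 83.8 CPM (log2 fold change -2.80, SE 0.24, adjusted p = 7.6e-29). Against endothelial-like cells 6 Polycomb genes were lower and 1, Cbx6, higher, where 15.3% and 17.4% of all genes were. Against pericyte-like cells 7 were lower and 1 higher, where 14.7% were in each direction. Of 9 tested genes of chromatin architecture, 4 were lower and 1 higher in fibroblast-like than in endothelial-like cells, where 15.3% and 17.4% of all genes were. Among the lower ones was Ctcf, at 32.9 and 31.7 beside 61.7 and 70.8 CPM (-0.82, SE 0.27, adjusted p = 0.00835). Against leukocytes 2 were higher and 1 lower, where 24.6% and 25.5% of all genes were. Against mesothelial-like cells 2 were higher and 1 lower, where the shares were 13.4% and 14.8%. Against pericyte-like cells 0 were higher and 2 lower, where 14.7% were in each direction. Between mesothelial-like and endothelial-like cells 0 were higher and 2 lower, where 17.8% and 14.6% of all genes were.

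Cyp26b1 and Meox2 were higher in endothelial-like than in fibroblast-like cells, and Prrx1 was lower. Of 17 other antero-posterior regulators 8 were tested, and Cyp26b1, which breaks down retinoic acid, had 24.8 and 12.2 CPM in fibroblast-like, 0 and 1.98 CPM in mesothelial-like and 115 and 99.1 CPM in endothelial-like cells. It was higher in endothelial-like than in fibroblast-like cells (-2.31 on the log2 scale, SE 0.27, adjusted p = 5.67e-16), and its ratio to mesothelial-like cells was 78.0 (21.1 to 653). Of the 8, 1 was higher and 2 lower in fibroblast-like than in endothelial-like cells, where 17.4% and 15.3% of all genes were. Of 30 other homeobox genes 8 were tested, with 3 higher and 2 lower in the same comparison and 6 higher and 0 lower against leukocytes, where 24.6% and 25.5% of all genes were. Prrx1, a mesenchymal homeobox gene, had 182 and 140 UMIs in fibroblast-like and 0 and 1 in endothelial-like cells (ratio 93.6, 16.7 to 3707). Isl1 had 38 and 108 UMIs in mesothelial-like and none in endothelial-like cells, at least 32.8-fold higher (adjusted p = 1.96e-22). Meox2, a homeobox gene of mesoderm, had 140 and 135 CPM in endothelial-like and 4.04 and 3.05 CPM in fibroblast-like cells (-5.02, SE 0.34, adjusted p = 6.84e-42).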

How the data were processed

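Whole-mesentery cells of 2 mice were read as 1 library each. Per the submitters' processing notes, Cell Ranger and mm10 were used; the deposited file holds the authors' raw UMI counts. Barcode suffixes 1 and 2 were matched to mice 1 and 2. Barcodes under 200 genes or above 10% mitochondrial UMIs were left out, and Scrublet doublet calls removed 39 and 4 cells, so doublets may remain. Cells were clustered in scanpy 1.11.5 (2000 variable genes, 30 components, 15 neighbours, resolution 1.0) without Hox genes or noncoding RNAs of their clusters, and named from markers; clusters with under 4 markers above 2-fold, or with Foxp3 among their 10 genes of highest fold, stayed unnamed, a threshold set after the data were seen. UMIs summed per cell type and library were tested in edgeR 4.0.16 (TMM, quasi-likelihood, library as a block, 10 sums, at least 10 UMIs, Benjamini-Hochberg at 0.05 over all genes). With 2 animals, p-values rest on the spread between libraries that is left after the block, estimated over all sums of a fit together. The block comes from the shared animal: deviations of the same library correlated at 0.0473 to 0.246 over 10 pairs of cell types. The fit was tested on simulated data. Members and lists were chosen with earlier results of these data known. Named genes were the 6 leading members of each wall cell type, up to 8 called members per comparison, 3 leading ones in leukocytes, the most posterior with a UMI, and up to 4 called genes of each list. Alternatives included DESeq2 1.42.0, other filters, doublet settings and resolutions. Of the lists, 9 of 20 noncoding RNAs, 9 of 10 architecture genes and 16 of 17 antero-posterior regulators matched the matrix by symbol. Some items are not reported here.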

Additional observations from a re-analysis of the deposited data

Results flagged for a closer look

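A cluster of 30 cells, led by Wdyhv1, had 3 markers of its best-matching list above 2-fold. It stayed unnamed under the threshold of 4 markers, which was set after the data were seen. The cluster held 20 Hox UMIs, 7 in library 1 and 13 in library 2, above the limit of 3 counts. It entered no comparison. Its Hox level was 219.2 CPM in library 1 and 122.9 CPM in library 2, with exact 95% intervals of 88.1 to 451.7 and 65.4 to 210.2 CPM.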

How the results depend on the processing

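Of 53 called member differences, 30 passed under every alternative with a test, 20 were lost by DESeq2's Wald test, 9 at resolution 2.0, and 5 with each class as its own sum; none reversed. With 1 library there is no residual spread, so leaving out a library gave no test; the log2 ratio of every called member kept its sign in each library. DESeq2's Wald test called 3 members against mesothelial-like cells, 7 against endothelial-like, 2 against pericyte-like and 8 between mesothelial-like and endothelial-like cells, and over all genes 3573 against leukocytes, 1670, 2706, 2382 and 2586; its likelihood ratio test called 0 members and 489 genes among clusters, and no doublet removal called 0 members there. At resolution 2.0, where 166 endothelial-like cells were named adipocyte-like, 8 members differed between fibroblast-like and endothelial-like cells, and the median over all genes moved to 0.24. With DESeq2 size factors 6 members were higher and 10 lower there. With no replicate block the members called were 16 against leukocytes, 5 against mesothelial-like, 14 against endothelial-like and 6 against pericyte-like cells, 12 between mesothelial-like and endothelial-like cells and 1 among clusters. Among the alternatives, counts over all genes are given for DESeq2's tests only, so the other member counts stand without that background. The mean total Hox level was 399.8 CPM in endothelial-like cells at resolution 2.0 (433.3 as reported), and in pericyte-like cells 508.7 CPM without doublet removal, 492.5 under the stricter cell filter and 508.6 at resolution 0.5 and with Hox genes left in (497.5 as reported). Over the libraries, each left out in turn, totals ran from 223.7 to 258.6, 528.4 to 542.3, 411.5 to 455.0, 497.3 to 497.7 and 21.8 to 34.1 CPM. Mean shares of cells with a Hox UMI, thinned to 500, 1000 and 2000 UMIs and unthinned, were 11.5, 21.2, 35.8 and 50.8% in fibroblast-like, 17.5, 37.0, 63.6 and 92.3% in mesothelial-like, 16.7, 33.8, 52.0 and 62.2% in endothelial-like, 19.2, 42.5, 64.0 and 79.2% in pericyte-like cells and 0.835, 1.59, 2.71 and 5.17% in leukocytes. The cause of these changes was not tested. Members with few UMIs, such as Hoxa6, are limited by depth.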
